A study of Mus musculus with 16 samples.

Results

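The set consists of 10 genes of the white adipocyte, Adipoq, Cfd, Lep, Retn, Plin1, Fabp4, Pparg, Lpl, Lipe and Pnpla2, and they were followed across the aortas of 4 groups of mice. They were found by gene symbol, and each matched 1 of the 54532 genes in the count table. The set was selected on its expression in these libraries, namely on higher levels of adipocyte genes in all 3 nephrectomy groups than in Sham, so the differences from Sham are given as a description and without a test. Differences among the nephrectomy groups were not a criterion of that choice and were tested. The choice used the same nephrectomy libraries, with earlier results of these data known, so these tests are not fully independent of it.

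At 12 weeks of age male C57BL/6J mice had either a sham operation or a 5/6 nephrectomy (5/6 Nx, removal of most of the kidney mass to induce chronic kidney disease), and after 2 weeks they were given the experimental diets for 30 days according to the labels (4 weeks in the methods). The diet of Sham and of 5/6 Nx-HPi-Lp was the same and held 2% phosphorus with 2.5% protein. That of 5/6 Nx-HPi-Hp held 2% phosphorus with 18% protein, and that of 5/6 Nx-LPi-Lp 0.3% phosphorus with 2.5% protein. Poly-A RNA from the whole aorta of 16 mice, 4 per group, was sequenced as 1 library per mouse. Surgery and diet both differ between Sham and the groups 5/6 Nx-LPi-Lp and 5/6 Nx-HPi-Hp and cannot be told apart there, since Sham mice on those diets were not analysed here. The methods describe removal of fat for aortas that were stained whole, and for the aortas used for RNA they say neither that it was done nor that it was not.

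White adipocytes store triglyceride in a large droplet under a coat of perilipin 1 (Plin1). Fatty acids enter after lipoprotein lipase (Lpl) has cut them from circulating lipoproteins, are carried by the fatty acid binding protein Fabp4, and leave when adipose triglyceride lipase (Pnpla2) and hormone-sensitive lipase (Lipe) act at the droplet in sequence. The nuclear receptor PPARgamma (Pparg) drives adipocyte differentiation and many genes of this program, and the mature cell secretes adiponectin (Adipoq), adipsin (Cfd, complement factor D), leptin (Lep) and resistin (Retn). The aorta is wrapped in perivascular fat, which in the mouse is brown-like along the thoracic part and closer to white fat along the abdominal part.

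Library totals ran from 13659525 to 57276915 counts, and the lowest count of any member in any library was 52 (Lep), so that counting error was small beside the spread between mice. All pairs of libraries within a group differed by more than sampling noise. Levels are given as CPM, counts scaled to a common library size with TMM factors, for comparisons of a gene between groups, and as FPKM, which are per length, for comparisons between genes. All 10 members passed the filter on low counts. Mitochondrially encoded genes took 4.18% to 6.34% of the counts in Sham, 19.3% to 27.1% in 5/6 Nx-HPi-Lp, 9.50% to 29.0% in 5/6 Nx-HPi-Hp and 14.2% to 21.1% in 5/6 Nx-LPi-Lp, so that this share was higher in the nephrectomy groups, as the members were. Its part in the differences from Sham was not tested. The lowest of the nephrectomy values, 9.50%, belonged to 5/6 Nx-HPi-Hp replicate 4. That library stood apart from the other 3 of its group: 6 of the 10 members were within the Sham range there, against 0, 1 and 0 in replicates 1, 2 and 3, and the summed level of 6 smooth muscle markers was 22027 CPM, inside the Sham range of 20837 to 24805 CPM. The counts of members above Sham and of members called between nephrectomy groups (criteria below), and the median over Sham, are given with and without it. Other values of 5/6 Nx-HPi-Hp include it unless stated, among them the fold changes of single genes over Sham and the counts of listed genes. Without it, the log2 fold changes of the members over Sham ran from 2.11 (Pnpla2) to 4.43 (Cfd), in place of 1.84 to 4.08.

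Promoter windows of 8 of the 10 members, 11 windows in all, were found among the RefSeq windows of build GRCm38.p6 (250 bases before to 50 after a transcript start), and Fabp4 and Lpl had none. The stretches of 250 bases upstream of the start are shown for Cfd and Retn, the members that differed between nephrectomy groups, and for Lep, Plin1 and 1 of the 3 Pparg windows. The last 3 hold the letters TTGCNNAA on either strand, a loose form of the core bound by C/EBP factors. They run 5′ to 3′ on the strand of the gene, with the matches in capitals.
Cfd, chr10:79890603-79890852, plus strand: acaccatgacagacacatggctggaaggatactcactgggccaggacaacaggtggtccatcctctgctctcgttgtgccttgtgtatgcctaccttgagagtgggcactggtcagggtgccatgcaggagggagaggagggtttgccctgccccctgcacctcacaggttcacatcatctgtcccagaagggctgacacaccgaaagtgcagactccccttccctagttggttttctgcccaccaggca
Retn, chr8:3655520-3655769, plus strand: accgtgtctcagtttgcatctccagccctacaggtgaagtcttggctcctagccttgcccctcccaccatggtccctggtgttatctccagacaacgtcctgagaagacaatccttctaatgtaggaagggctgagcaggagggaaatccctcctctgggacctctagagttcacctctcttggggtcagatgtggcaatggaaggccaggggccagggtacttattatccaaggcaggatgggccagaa
Lep, chr6:29059971-29060220, plus strand: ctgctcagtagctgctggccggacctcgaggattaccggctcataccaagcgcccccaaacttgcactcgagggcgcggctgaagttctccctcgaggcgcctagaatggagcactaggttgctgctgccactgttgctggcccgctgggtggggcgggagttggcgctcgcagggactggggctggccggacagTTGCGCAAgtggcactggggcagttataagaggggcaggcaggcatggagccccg
Plin1, chr7:79732777-79733026, minus strand: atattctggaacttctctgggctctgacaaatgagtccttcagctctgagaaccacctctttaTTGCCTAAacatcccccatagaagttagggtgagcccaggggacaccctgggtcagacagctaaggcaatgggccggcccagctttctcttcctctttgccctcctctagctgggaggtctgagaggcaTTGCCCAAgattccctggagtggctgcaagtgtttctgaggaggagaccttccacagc
Pparg, chr6:115421816-115422065, plus strand: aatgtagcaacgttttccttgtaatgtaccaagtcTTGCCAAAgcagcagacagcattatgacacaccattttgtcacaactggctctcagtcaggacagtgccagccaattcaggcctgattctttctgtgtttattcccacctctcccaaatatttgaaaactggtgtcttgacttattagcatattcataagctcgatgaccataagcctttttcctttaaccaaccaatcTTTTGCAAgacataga

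Of the 32851 windows searched on both strands, 10.8% held TTGCNNAA. Among the members, the letters began 55 bases before the start in Lep, 187 and 58 bases before it in Plin1, and 215 bases before it in the Pparg window. The second match in the Pparg window, 16 bases before the start, lies on the opposite strand and is printed as TTTTGCAA. A direct repeat of AGGNCA with 1 base between the copies, the type of element bound by PPARgamma with its partner RXR, was in 0.381% of all windows and in no member's window, and TATAAA was in 13.6% of all windows and in another Pparg window, 29 bases before its start on the opposite strand. These matches describe the letters alone, and Cfd and Retn held none of the 3 motifs in their windows.

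All 10 members had a higher mean level in each nephrectomy group than in Sham. The median log2 fold change of the 10 was 2.15 in 5/6 Nx-HPi-Lp, 2.42 in 5/6 Nx-HPi-Hp and 2.31 in 5/6 Nx-LPi-Lp, while the median of all genes tested was -0.0027, 0.018 and 0.020. Of the 10 members, 9 lay above Sham in 5/6 Nx-HPi-Lp with no overlap of the 4 and 4 libraries, where 21.8% of all tested genes did. In 5/6 Nx-LPi-Lp 8 of 10 did (16.2% of all genes). In 5/6 Nx-HPi-Hp 4 of 10 did (15.1% of all genes), and without replicate 4 the count was 9 of 10 (24.0% of all genes) and the median log2 fold change 2.72. The choice of the set used these contrasts, so nothing is read from the counts. In whole aorta RNA, a larger number of adipocytes in the sample and more RNA of these genes per adipocyte cannot be told apart.

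**Figure D1:**
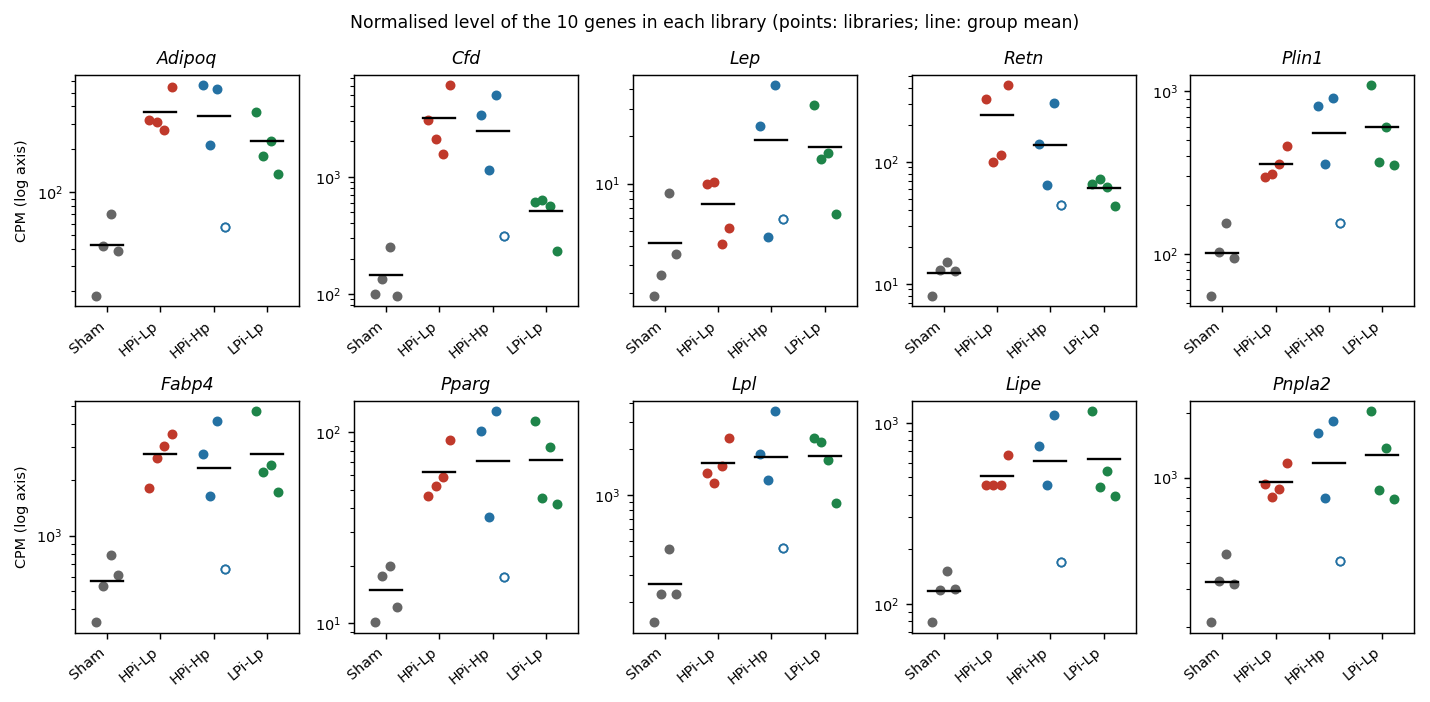
Level of each of the 10 genes (CPM after TMM scaling, log axis) in the 4 libraries of Sham and of the nephrectomy groups on the HPi-Lp, HPi-Hp and LPi-Lp diets, with points for libraries, a line for the group mean and an open point for 5/6 Nx-HPi-Hp replicate 4. Sham has the lowest mean for all 10 genes, Cfd and Retn are lower in 5/6 Nx-LPi-Lp than in 5/6 Nx-HPi-Lp without overlap, and the open point is within the Sham range for 6 of the 10 genes.

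Among the secreted factors, adiponectin mRNA (Adipoq, ENSMUSG00000022878, chr16:23146536-23158028, plus strand, build mm10 as for all genes here) was 18.7, 42.1, 69.6 and 38.4 CPM in Sham replicates 1 to 4. In 5/6 Nx-HPi-Lp it was 324, 314, 272 and 551 CPM, in 5/6 Nx-HPi-Hp 566, 214, 534 and 56.7 CPM, and in 5/6 Nx-LPi-Lp 366, 179.6, 231 and 134 CPM. Every 5/6 Nx-HPi-Lp and 5/6 Nx-LPi-Lp library was above the highest Sham library, and 5/6 Nx-HPi-Hp replicate 4 was below it. The log2 fold change over Sham was 3.08 ± 0.38 (SE), 3.02 ± 0.65 and 2.45 ± 0.41 in the 3 groups in this order.

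Adipsin mRNA (Cfd, ENSMUSG00000061780, chr10:79890853-79892655, plus strand) encodes the serine protease that cleaves factor B in the alternative complement pathway. In Sham it was 99.8, 133, 253 and 96.5 CPM, and in 5/6 Nx-HPi-Lp 3056, 2091, 1579 and 6063 CPM. The values were 3364, 1148, 5008 and 312 CPM in 5/6 Nx-HPi-Hp, and 614, 639.6, 563 and 234 CPM in 5/6 Nx-LPi-Lp. The lowest 5/6 Nx-HPi-Lp library was thus above the highest 5/6 Nx-LPi-Lp library, and 1 library of 5/6 Nx-LPi-Lp lay within the Sham range. Over Sham the log2 fold change was 4.43 ± 0.51 in 5/6 Nx-HPi-Lp and 4.08 ± 0.76 in 5/6 Nx-HPi-Hp, but 1.83 ± 0.38 in 5/6 Nx-LPi-Lp, the lowest of the 10 members in that group.

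Resistin mRNA (Retn, ENSMUSG00000012705, chr8:3655770-3660110, plus strand), in mice a product of adipocytes that opposes insulin action, followed the same order. Its level was 7.99, 12.9, 15.1 and 12.7 CPM in Sham and 327, 99.8, 114 and 425 CPM in 5/6 Nx-HPi-Lp. It was 139.5, 65.1, 305 and 43.9 CPM in 5/6 Nx-HPi-Hp and 65.8, 71.6, 62.6 and 43.8 CPM in 5/6 Nx-LPi-Lp. All 12 nephrectomy libraries were above the 4 Sham libraries, including 5/6 Nx-HPi-Hp replicate 4. The log2 fold change over Sham was 4.28 ± 0.51, 3.50 ± 0.56 and 2.34 ± 0.21, in the order given for Adipoq.

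Leptin mRNA (Lep, ENSMUSG00000059201, chr6:29060220-29073877, plus strand), the satiety signal whose level in fat follows fat stores, was the lowest of the 10 genes per length in every group (FPKM 1.24 ± 0.905 in Sham and 2.17 ± 0.939 in 5/6 Nx-HPi-Lp, mean ± SD, n = 4). In CPM it was 1.91, 2.61, 8.68 and 3.54 in Sham and 9.92, 10.2, 4.12 and 5.16 in 5/6 Nx-HPi-Lp, so that 2 of 4 libraries overlapped Sham. It was 23.4, 4.54, 42.7 and 5.92 CPM in 5/6 Nx-HPi-Hp and 32.0, 14.4, 15.8 and 6.35 CPM in 5/6 Nx-LPi-Lp. Here 5/6 Nx-HPi-Lp was the lowest of the nephrectomy groups, with a log2 fold change over Sham of 0.78 ± 0.49 against 2.19 ± 0.72 in 5/6 Nx-HPi-Hp and 2.05 ± 0.55 in 5/6 Nx-LPi-Lp. Of the 10 members, Lep was the only one with a log2 fold change below 1 over Sham in any group.

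At the lipid droplet, perilipin 1 mRNA (Plin1, ENSMUSG00000030546, chr7:79720218-79732903, minus strand) was 55.5, 103, 155 and 94.6 CPM in Sham. The nephrectomy groups gave 296 to 463 CPM in 5/6 Nx-HPi-Lp, 155 to 911 CPM in 5/6 Nx-HPi-Hp and 353 to 1093 CPM in 5/6 Nx-LPi-Lp. The 5/6 Nx-HPi-Lp mean was the lowest of the 3, with a log2 fold change over Sham of 1.77 ± 0.28 against 2.45 ± 0.52 and 2.58 ± 0.42.

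Adipose triglyceride lipase mRNA (Pnpla2, ENSMUSG00000025509, chr7:141455198-141460743, plus strand), for the enzyme that cuts the first fatty acid from stored triglyceride, was 211 to 439.8 CPM in Sham, 815 to 1172 CPM in 5/6 Nx-HPi-Lp, 406 to 1836.5 CPM in 5/6 Nx-HPi-Hp and 794 to 2042 CPM in 5/6 Nx-LPi-Lp. Its log2 fold change over Sham, 1.51 ± 0.22, 1.84 ± 0.43 and 1.99 ± 0.33, was smaller than that of Plin1 in each group. Hormone-sensitive lipase mRNA (Lipe, ENSMUSG00000003123, chr7:25379527-25398710, minus strand), for the enzyme of the next step, had a log2 fold change of 2.07 ± 0.21, 2.39 ± 0.47 and 2.45 ± 0.36. The Lipe locus overlaps the gene 4732471J01Rik on the other strand, which held 544 counts over the 16 libraries against 153842 for Lipe.

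For fatty acid supply, Lpl mRNA (ENSMUSG00000015568, chr8:68880491-68907448, plus strand) was 148 to 446 CPM in Sham, 1202 to 2352 CPM in 5/6 Nx-HPi-Lp, 452 to 3510 CPM in 5/6 Nx-HPi-Hp and 883 to 2353 CPM in 5/6 Nx-LPi-Lp. It had the largest log2 fold change of the 10 in 5/6 Nx-LPi-Lp, 2.79 ± 0.40, next to 2.60 ± 0.35 in 5/6 Nx-HPi-Lp and 2.75 ± 0.57 in 5/6 Nx-HPi-Hp. Fabp4 mRNA (ENSMUSG00000062515, chr3:10204088-10208576, minus strand), which endothelial cells and macrophages also express, was 342 to 791 CPM in Sham and 1814 to 3526 CPM in 5/6 Nx-HPi-Lp, a log2 fold change of 2.23 ± 0.28. The values over Sham were 2.02 ± 0.49 in 5/6 Nx-HPi-Hp and 2.29 ± 0.35 in 5/6 Nx-LPi-Lp.

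The regulator Pparg (ENSMUSG00000000440, chr6:115360951-115490399, plus strand) ranged from 10.1 to 19.9 CPM in Sham, from 46.3 to 90.9 CPM in 5/6 Nx-HPi-Lp, from 17.4 to 129 CPM in 5/6 Nx-HPi-Hp and from 42.1 to 115 CPM in 5/6 Nx-LPi-Lp. Its log2 fold change over Sham differed little between the groups, at 2.02 ± 0.27, 2.25 ± 0.54 and 2.28 ± 0.35. An antisense gene within the locus, Gm44079, held 17 counts in all libraries together.

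Per length, Cfd had the highest mean of the set in 5/6 Nx-HPi-Lp, at an FPKM of 3438 ± 2170 (SD, n = 4), with no overlap with Fabp4, the next gene at 604 ± 157. In Sham, Cfd (157 ± 78.7 FPKM) and Fabp4 (127 ± 40.9) overlapped, as did Fabp4 and Pnpla2 (107 ± 30.5). In 5/6 Nx-LPi-Lp the order of the means was reversed, with Fabp4 at 615 ± 305 and Cfd at 555 ± 205, and their ranges overlapped. Retn ranked eighth in Sham (7.69 ± 1.88 FPKM) and sixth in 5/6 Nx-HPi-Lp (152 ± 102), where its range overlapped those of its neighbours Lpl (154 ± 48.0) and Lipe (85.3 ± 18.2). Pparg and Lep took the last 2 ranks in all 4 groups.

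The nephrectomy groups were then compared with each other by the quasi-likelihood test of edgeR with Benjamini-Hochberg adjustment over all genes tested, and a gene was called when the adjusted p was no higher than 0.05 and the change was 1 or more log2 units in size. The first comparison, 5/6 Nx-HPi-Lp against 5/6 Nx-LPi-Lp, differs in dietary phosphorus. Cfd and Retn, both secreted factors, were higher in 5/6 Nx-HPi-Lp, and the other 8 members were not called. Across all genes 11.9% were called, 7.90% higher and 3.98% lower, so that 2 of 10 is near the background. Cfd differed by 2.62 ± 0.47 on the log2 scale (adjusted p = 0.0068), or 6.23-fold between group means. Retn differed by 1.97 ± 0.45 (adjusted p = 0.017), or 3.96-fold, and both genes had no overlap between the 4 and 4 libraries, where 13.1% of all genes were higher without overlap. The Retn call was lost without 5/6 Nx-LPi-Lp replicate 3 (adjusted p = 0.052 at a log2 fold change of 2.01), and over all alternatives its adjusted p ran from 1.7e-05 to 0.089. The Cfd call was kept under every alternative tried, with a highest adjusted p of 0.043.

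Lep pointed the other way in this comparison, at -1.24 ± 0.48 (adjusted p = 0.096, edgeR), and was not called. DESeq2 called it (adjusted p = 0.033), as did edgeR without 5/6 Nx-LPi-Lp replicate 4 (-1.50, adjusted p = 0.042), with a range from 0.033 to 0.28 over the alternatives. Plin1 gave -0.78 ± 0.36 (adjusted p = 0.15, edgeR) and Adipoq 0.66 ± 0.33 (adjusted p = 0.18, edgeR). The remaining 5 members lay between -0.44 (Pnpla2) and -0.022 (Fabp4).

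The second comparison, 5/6 Nx-HPi-Lp against 5/6 Nx-HPi-Hp, differs in dietary protein and, by the listed composition, also in starch. No member was called, where 8.12% of all genes were. By edgeR 0 of 10 members had an unadjusted p under 0.05, against 5003 of all genes (30.9%), by DESeq2 1 of 10 had and 0 were called, and by limma both counts were 0. The largest difference was that of Lep, at -1.38 ± 0.64 (adjusted p = 0.18, edgeR), followed by Retn at 0.81 ± 0.64 and Plin1 at -0.65 ± 0.45. Without 5/6 Nx-HPi-Hp replicate 4 the count of called members stayed at 0 and Lep was at -1.68 (adjusted p = 0.092, edgeR) and Plin1 at -0.96 (adjusted p = 0.068, edgeR). Cfd was at 0.39 ± 0.72, and at 0.019 without replicate 4, with no difference beyond the spread between these mice.

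In the third comparison, 5/6 Nx-HPi-Hp against 5/6 Nx-LPi-Lp, both phosphorus and protein differ, and no gene of the 15850 tested was called by edgeR, the members included. At an unadjusted p under 0.05 there were 1420 genes, 8.96% of those tested, and 2 of the 10 members, Cfd and Retn, and DESeq2 called 75 genes but no member, while limma called 0 of either. Cfd was higher in 5/6 Nx-HPi-Hp by 2.25 ± 0.71 (adjusted p = 0.52, edgeR) and Retn by 1.17 ± 0.51 (adjusted p = 0.55, edgeR). The other 8 members lay between -0.27 (Fabp4) and 0.57 (Adipoq). Without replicate 4 Cfd was at 2.62 (adjusted p = 0.28, edgeR).

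**Figure D2:**
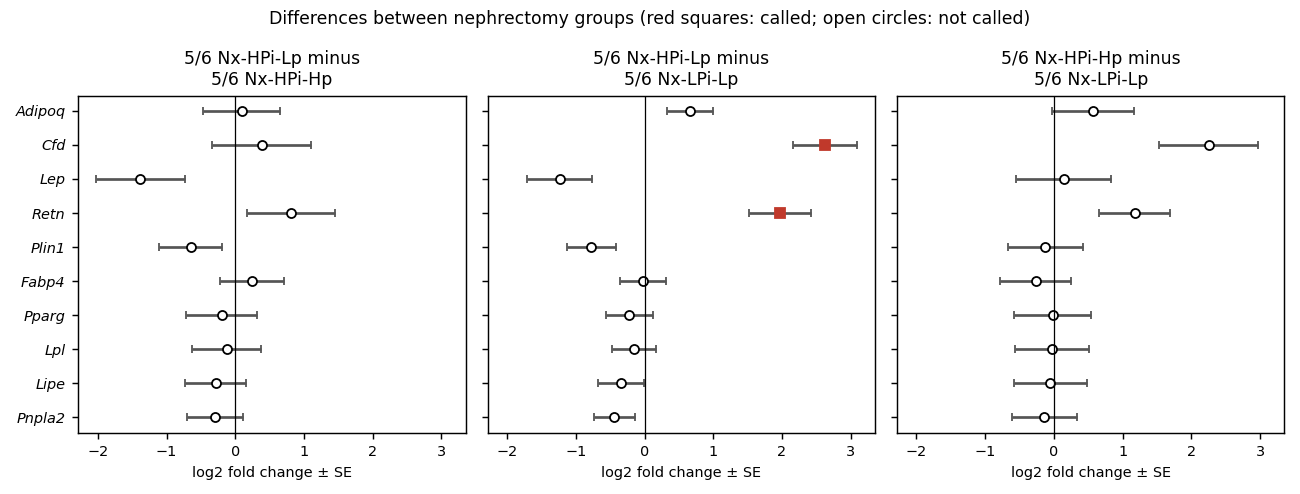
Log2 fold change between nephrectomy groups for each of the 10 genes, with bars of 1 SE, where red squares mark called genes and open circles genes not called. Cfd (2.62) and Retn (1.97) are the called genes, both in the comparison of 5/6 Nx-HPi-Lp with 5/6 Nx-LPi-Lp, and Lep is left of 0 in both comparisons of 5/6 Nx-HPi-Lp.

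The members were next compared within each library, so that each gene was set against other adipocyte genes of the same mouse. For the 8 other members, the log2 level was set against the mean log2 level of Adipoq and Plin1 in the same library, and the 24 resulting differences between nephrectomy groups were tested by exact two-sided permutation of the 4 and 4 libraries. The smallest p this design allows is 0.0286, and 4 of the 24 reached it. Adjusted over the 24 ratios (Benjamini-Hochberg), these 4 permutation tests were at 0.172, so none passed the correction. Relative to Adipoq and Plin1, Cfd was 2.50 ± 0.42 (SE) log2 units higher in 5/6 Nx-HPi-Lp than in 5/6 Nx-LPi-Lp (exact permutation p = 0.0286) and 1.74 ± 0.39 higher in 5/6 Nx-HPi-Hp than in 5/6 Nx-LPi-Lp (exact permutation p = 0.0286). Without 5/6 Nx-HPi-Hp replicate 4, 3 of the 8 ratios separated 5/6 Nx-HPi-Hp from 5/6 Nx-LPi-Lp, in place of 1. The mean log2 ratio of Cfd was 2.99 ± 0.56 (SD, n = 4) in 5/6 Nx-HPi-Lp, 2.24 ± 0.47 in 5/6 Nx-HPi-Hp, 0.49 ± 0.61 in 5/6 Nx-LPi-Lp and 1.15 ± 0.40 in Sham.

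The Retn ratio was 1.68 ± 0.52 higher in 5/6 Nx-HPi-Lp than in 5/6 Nx-LPi-Lp (exact permutation p = 0.0286). The Pnpla2 ratio was lower in that comparison, by -0.38 ± 0.094 (exact permutation p = 0.0286), with a mean of 1.42 ± 0.16 in 5/6 Nx-HPi-Lp, 1.81 ± 0.093 in 5/6 Nx-LPi-Lp and 2.38 ± 0.26 in Sham. The Lep ratio was -1.15 ± 0.47 in the same comparison and its groups overlapped (exact permutation p = 0.0857). No ratio separated 5/6 Nx-HPi-Lp from 5/6 Nx-HPi-Hp, where the lowest exact permutation p was 0.1143, for Cfd. The ratios of Fabp4, Pparg, Lpl and Lipe differed between nephrectomy groups by at most 0.42 log2 units, with p from 0.0571 to 0.9429 by exact permutation.

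The reference genes themselves did not keep a fixed ratio. The log2 ratio of Adipoq to Plin1, examined after the values had been seen and therefore not tested, was 0.13, 0.015, -0.40 and 0.25 in 5/6 Nx-HPi-Lp. It was -0.52, -0.73, -0.77 and -1.45 in 5/6 Nx-HPi-Hp, -1.58, -1.03, -1.38 and -1.39 in 5/6 Nx-LPi-Lp, and -1.57, -1.29, -1.15 and -1.30 in Sham. The 5/6 Nx-HPi-Lp libraries lay above all 12 others, and the 5/6 Nx-LPi-Lp libraries overlapped Sham.

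**Figure D3:**
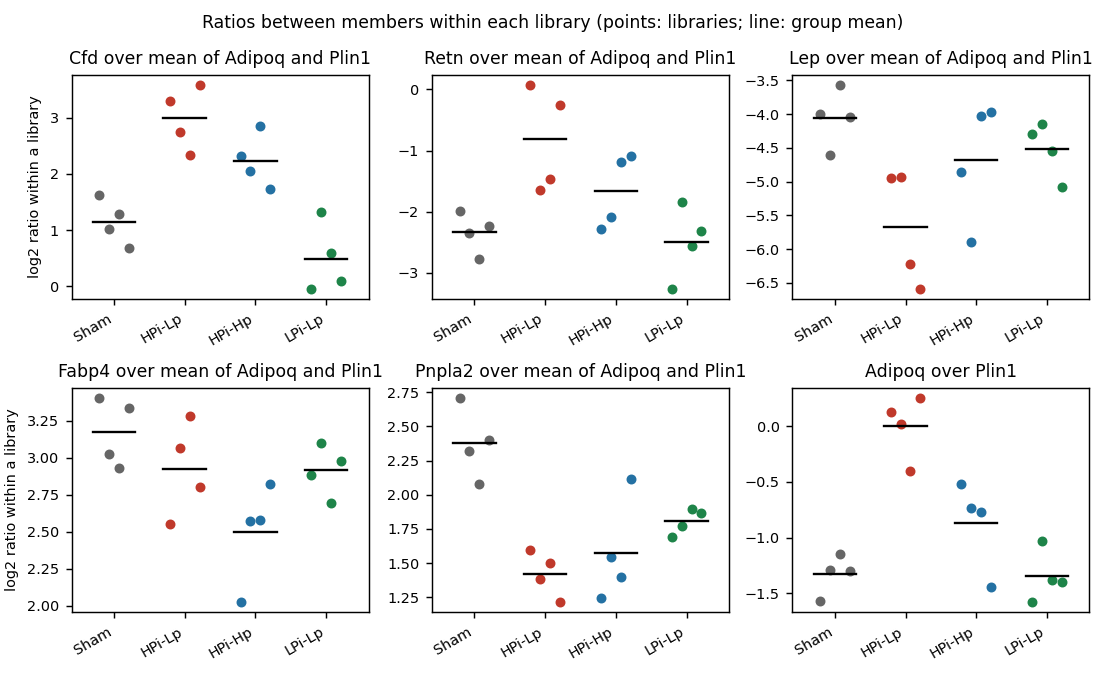
Log2 ratio within each library (y axis) of Cfd, Retn, Lep, Fabp4 and Pnpla2 to the mean of Adipoq and Plin1, and of Adipoq to Plin1, with points for libraries and a line for the group mean in Sham and the nephrectomy groups on the HPi-Lp, HPi-Hp and LPi-Lp diets. The Cfd ratio averages 2.99 in 5/6 Nx-HPi-Lp and 0.49 in 5/6 Nx-LPi-Lp with no overlap, and Pnpla2 averages 1.42 and 1.81. The sign of the Pnpla2 difference depends on the reference gene.

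Across the 16 libraries the 45 pairs of members had Pearson correlations of log2 CPM from 0.545 (Cfd and Lep) to 0.993, with a median of 0.919. After removal of the group means they ran from 0.637 (Lep and Retn) to 0.991, with a median of 0.877. Lipe had the highest median correlation with the other members (0.968) and Lep the lowest (0.767). These are descriptions over libraries that share a scaling and a group structure. Outside the set, the genes most like the mean standardised profile of the members over the 16 libraries were Cidec (Pearson r 0.994), Adig (0.987), Ankef1 (0.986), Lgals12 (0.985), Acvr1c (0.984), Abcd2 (0.983), Amy1 (0.982), C1qtnf9 (0.981), Met (0.977) and Cdo1 (0.976). On deviations from the group means the nearest were Mgst1 (0.988), Cidec (0.987), Tmem45b (0.984), Lgals12 (0.983), Abcd2 (0.982), Acsl1 (0.981), Cd36 (0.979), Pcx (0.973), Adig (0.973) and Cdo1 (0.972), so that 5 genes, Abcd2, Adig, Cdo1, Cidec and Lgals12, were named by both measures.

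The genes around the members, 68 in 6 lists of receptors, other secreted factors, droplet proteins, lipid synthesis, regulators and signalling, were chosen with earlier results known, and 65 passed the filter on low counts in every comparison. Since adipocyte genes were known to be higher after nephrectomy, their tests against Sham are not independent evidence of a direction. Against Sham, 31 were called higher and 4 lower in 5/6 Nx-HPi-Lp (15.0% and 7.18% of all genes), 32 and 2 in 5/6 Nx-HPi-Hp (9.41% and 2.75%) and 42 and 0 in 5/6 Nx-LPi-Lp (8.79% and 2.08%). The median log2 fold change of the 65 was 0.90, 1.07 and 1.64. The 5/6 Nx-HPi-Hp values include replicate 4, and without it 3161 of all genes were called against Sham in place of 1932.

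Of 6 adipokine receptors, the median log2 fold change over Sham was below 0 in all 3 groups (-0.57, -0.84 and -0.54). Adipor2, a receptor of adiponectin, was called higher than in Sham in all 3 nephrectomy groups, with a largest log2 fold change of 1.79 ± 0.32 in 5/6 Nx-LPi-Lp (adjusted p = 0.0045, edgeR). Cdh13, the adiponectin-binding T-cadherin, fell by 1.46 ± 0.11 (adjusted p = 2.7e-05) and the leptin receptor Lepr by 1.10 ± 0.25 (adjusted p = 0.0056) in 5/6 Nx-HPi-Lp, and both were also called lower in 5/6 Nx-HPi-Hp. Adipor1 was at 0.10 ± 0.096 in 5/6 Nx-HPi-Lp (adjusted p = 0.43, edgeR).

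Among the other secreted factors, Apln, the vasoactive peptide apelin, had the largest log2 fold change over Sham at 3.10 ± 0.72 in 5/6 Nx-HPi-Lp (adjusted p = 0.0069, edgeR), with 1 library of 0.448 CPM below the Sham range. Angptl4, a secreted inhibitor of lipoprotein lipase, had 2.83 ± 0.54 in 5/6 Nx-HPi-Hp (adjusted p = 0.0098, edgeR). Rbp4, the plasma retinol carrier, went the other way and fell by 1.89 ± 0.18 in 5/6 Nx-HPi-Lp against Sham (adjusted p = 6.2e-05, edgeR) and by 1.56 ± 0.22 against 5/6 Nx-HPi-Hp (adjusted p = 0.0047, edgeR). Nrg4, a neuregulin that brown fat secretes, was lower in 5/6 Nx-HPi-Lp than in 5/6 Nx-LPi-Lp by -1.08 ± 0.32 (adjusted p = 0.044, edgeR). Rarres2, the chemokine-like chemerin, fell by 1.58 ± 0.12 in 5/6 Nx-HPi-Lp against Sham (adjusted p = 2.7e-05, edgeR). It was at -0.62 ± 0.22 in 5/6 Nx-HPi-Hp (adjusted p = 0.054, edgeR), not called. Of the 10 listed factors 8 passed the filter on low counts, and 4 were called higher than in Sham in each nephrectomy group (15.0%, 9.41% and 8.79% of all genes). In 5/6 Nx-HPi-Lp 2 were called lower (7.18% of all genes), and 0 in each of the other groups.

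Of the droplet proteins and partners of lipolysis, 14 of 15 were tested. In the 3 groups in this order 8, 7 and 11 were called higher than in Sham (15.0%, 9.41% and 8.79% of all genes), with none lower. Plin5, the perilipin of oxidative tissue, had a log2 fold change of 2.73 ± 0.42 (adjusted p = 0.0034, edgeR) and Pnpla3, a paralogue of Pnpla2, of 2.67 ± 0.46 (adjusted p = 0.0039, edgeR) in 5/6 Nx-LPi-Lp. Pnpla3 was lower in 5/6 Nx-HPi-Lp than in 5/6 Nx-LPi-Lp by -1.78 ± 0.52 (adjusted p = 0.039, edgeR), as was the droplet protein Cidea by -1.54 ± 0.37 (adjusted p = 0.021, edgeR). Hilpda, a hypoxia-induced inhibitor of Pnpla2, was at -0.59 ± 0.17 in 5/6 Nx-HPi-Hp (adjusted p = 0.028, edgeR) and Plin3 at -0.29 ± 0.14 in 5/6 Nx-HPi-Lp (adjusted p = 0.13, edgeR). Neither was called, Hilpda only because its change was under 1 log2 unit.

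Fatty acid uptake and triglyceride synthesis had 9, 9 and 12 of 14 genes called higher than in Sham in the 3 groups (15.0%, 9.41% and 8.79% of all genes) and none lower. Pck1, which supplies the glycerol backbone, had 3.19 ± 0.62 in 5/6 Nx-HPi-Hp (adjusted p = 0.0099, edgeR) and Gpihbp1, the endothelial anchor of lipoprotein lipase, 2.98 ± 0.23 in 5/6 Nx-HPi-Lp (adjusted p = 2.6e-05, edgeR). Agpat2, Gpd1 and Lpin1, enzymes of triglyceride assembly, were lower in 5/6 Nx-HPi-Lp than in 5/6 Nx-LPi-Lp, by -1.71 ± 0.39, -1.65 ± 0.49 and -1.06 ± 0.29 (adjusted p = 0.017, 0.041 and 0.031, edgeR). Slc27a4, a fatty acid transporter, was at -0.27 ± 0.11 in 5/6 Nx-HPi-Lp against Sham.

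Among 11 adipocyte regulators, 4 were called higher than in Sham in each group (15.0%, 9.41% and 8.79% of all genes). Cebpa, the partner of Pparg in terminal differentiation, had 2.71 ± 0.46 in 5/6 Nx-HPi-Hp (adjusted p = 0.0094, edgeR), and the coactivator Ppargc1b 2.10 ± 0.42 in 5/6 Nx-LPi-Lp (adjusted p = 0.0061, edgeR). Cebpd, an early differentiation factor that glucocorticoids and cytokines induce, was the only listed gene called higher in 5/6 Nx-HPi-Lp than in other nephrectomy groups, by 1.20 ± 0.35 against 5/6 Nx-LPi-Lp (adjusted p = 0.041, edgeR) and 1.03 ± 0.22 against 5/6 Nx-HPi-Hp (adjusted p = 0.016, edgeR). Klf15 was at -0.72 ± 0.34 in 5/6 Nx-HPi-Lp (adjusted p = 0.12, edgeR) and Zfp423 at -0.52 ± 0.15 in 5/6 Nx-LPi-Lp (adjusted p = 0.026, edgeR) against Sham. Neither was called, Zfp423 only because its change was under 1 log2 unit.

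Of 12 genes of lipolytic and insulin signalling, 5, 7 and 10 were called higher than in Sham (15.0%, 9.41% and 8.79% of all genes). Hcar2 and Hcar1, receptors of ketone bodies and lactate that restrain lipolysis, had 3.72 ± 0.68 and 3.29 ± 0.63 in 5/6 Nx-HPi-Hp (adjusted p = 0.0096 and 0.0097, edgeR). The adipocyte beta-adrenergic receptor Adrb3 was lower in 5/6 Nx-HPi-Lp than in 5/6 Nx-HPi-Hp by -2.05 ± 0.57 (adjusted p = 0.042, edgeR), and Adrb1 and the prostaglandin receptor Ptger3 were lower than in 5/6 Nx-LPi-Lp by -1.38 ± 0.38 and -1.49 ± 0.42 (adjusted p = 0.034 and 0.035, edgeR). Irs1 and the insulin receptor Insr were at -0.65 ± 0.26 and -0.21 ± 0.10 in 5/6 Nx-HPi-Lp against Sham, not called.

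Between nephrectomy groups, 12 of the 65 listed genes were called lower and 1 higher in 5/6 Nx-HPi-Lp than in 5/6 Nx-LPi-Lp (3.98% and 7.90% of all genes), and 2 lower and 1 higher than in 5/6 Nx-HPi-Hp (3.11% and 5.01%). In 5/6 Nx-HPi-Hp against 5/6 Nx-LPi-Lp, 0 of 65 were called by edgeR and 10 had an unadjusted p under 0.05.

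**Figure D4:**
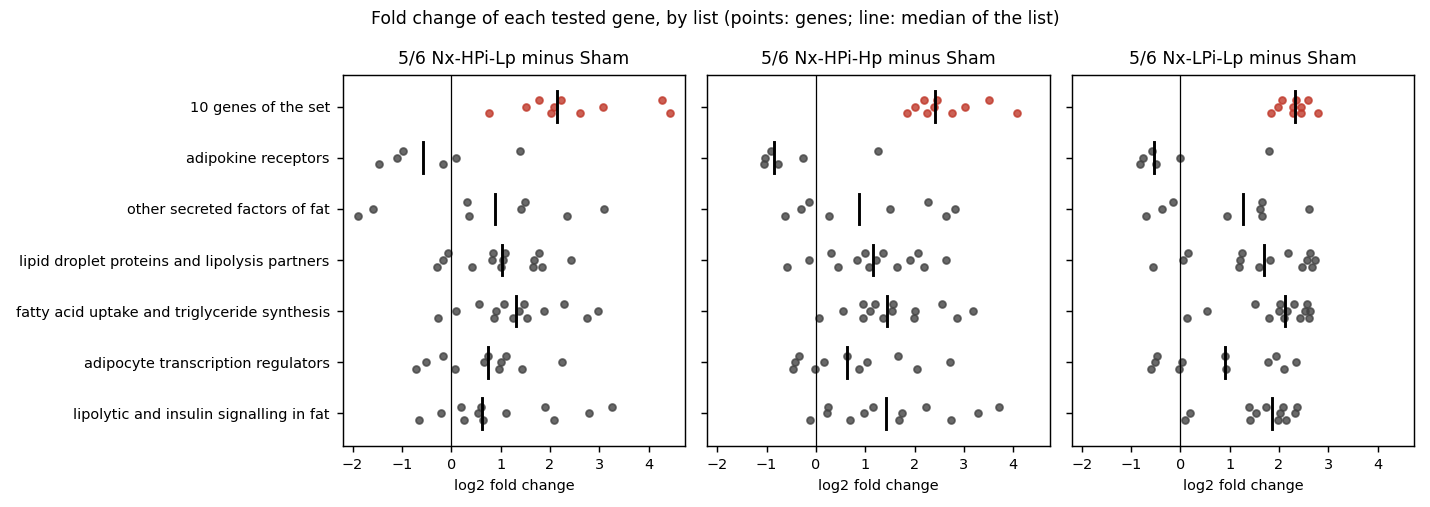
Log2 fold change over Sham (x axis) of each tested gene, by list, in the 3 nephrectomy groups, with red points for the 10 genes of the set, grey points for the listed genes and a line at the median of each list. The medians of the set are 2.15, 2.42 and 2.31, and adipokine receptors have the lowest median of the lists in each panel.

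The labelled tissue was checked by its markers. The 6 smooth muscle markers, Acta2, Myh11, Tagln, Cnn1, Smtn and Lmod1, were detected in all groups, with a sum of 20837 to 24805 CPM in Sham, 2255 to 5111 CPM in 5/6 Nx-HPi-Lp, 6816 to 22027 CPM in 5/6 Nx-HPi-Hp and 7659 to 17585 CPM in 5/6 Nx-LPi-Lp. The 6 white adipocyte markers outside the set were detected in all groups as well, and their sum was 683 to 1121 CPM in Sham and 1469 to 1841, 1132 to 3930 and 1888 to 4957 CPM in the nephrectomy groups in the order above. Among them Plin4, which was at 487 ± 64.5 CPM (SD, n = 4) in Sham and 479.9 ± 111 CPM in 5/6 Nx-HPi-Lp, was not called. Against Sham the members were thus higher together with adipocyte markers, while the smooth muscle sum was lower in all but 1 nephrectomy library. The smooth muscle sum had a median of 3424 CPM in 5/6 Nx-HPi-Lp, 10703 CPM in 5/6 Nx-HPi-Hp and 11308 CPM in 5/6 Nx-LPi-Lp. In the same order the member sum had medians of 8496, 8980 and 7317 CPM, and the white adipocyte sum 1615, 2164 and 2572 CPM. Cfd, a large part of the member sum, had means of 3197, 2458 and 513 CPM in that order, so the order of the member sums need not hold for the other members. Within 5/6 Nx-HPi-Hp, replicate 3 had the lowest smooth muscle and highest member sum (6816 and 17546 CPM). Replicate 4 had the reverse (22027 and 2281 CPM). In 5/6 Nx-LPi-Lp the same held for replicate 1 (7659 and 12518 CPM) and replicate 4 (17585 and 4604 CPM). In 5/6 Nx-HPi-Lp replicate 4 had 2255 and 15314 CPM, but replicate 2, at 2341 CPM, had the lowest member sum (7955 CPM). The part of tissue composition in the members' differences was not tested.

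Brown adipocyte markers were higher in the nephrectomy groups too. Of 10 such genes 9 were tested, and 4, 7 and 8 were called higher than in Sham in the 3 groups (15.0%, 9.41% and 8.79% of all genes). In 5/6 Nx-HPi-Hp 1 was called lower than in Sham (2.75% of all genes). In 5/6 Nx-HPi-Lp against 5/6 Nx-LPi-Lp, 4 of the 9 were called lower and 1 higher (3.98% and 7.90% of all genes). Their median log2 fold change there was -1.45. In this comparison 12 of the 65 listed genes were lower too, and Cidea is in both lists. The part of brown fat in those differences was not tested. Their sum was 406 to 792 CPM in Sham, 769 to 2444 CPM in 5/6 Nx-HPi-Lp, 867 to 3365 CPM in 5/6 Nx-HPi-Hp and 1814 to 5816 CPM in 5/6 Nx-LPi-Lp. Ucp1, the uncoupling protein that defines brown fat, was at 345 ± 116 CPM in Sham and 739.6 ± 421, 919 ± 502 and 1873 ± 959 CPM in the 3 nephrectomy groups. Brown adipocytes express most of the 10 genes of the set as well, and the part of brown fat in their differences was not tested.

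Macrophage markers had their highest sums in 5/6 Nx-HPi-Lp, the group with the highest means of Cfd and Retn. All 6, Cd68, Adgre1, Csf1r, Mrc1, Lyz2 and Trem2, were called higher in 5/6 Nx-HPi-Lp than in Sham and in both other nephrectomy groups. Of all genes 15.0% were called higher than in Sham, 5.01% than in 5/6 Nx-HPi-Hp and 7.90% than in 5/6 Nx-LPi-Lp. The macrophage sum was 549 to 2016 CPM in 5/6 Nx-HPi-Lp, 144 to 233 CPM in Sham, 224 to 401 CPM in 5/6 Nx-HPi-Hp and 145 to 257 CPM in 5/6 Nx-LPi-Lp. In 5/6 Nx-HPi-Lp replicates 1 to 4 the macrophage sum was 549, 2016, 1162 and 994 CPM. Retn was at 327, 99.8, 114 and 425 CPM in these libraries, and Cfd at 3056, 2091, 1579 and 6063 CPM. The part of macrophages in the differences of Cfd and Retn was not tested. The 6 fibroblast and preadipocyte markers had a sum of 1274 to 3004 CPM in 5/6 Nx-HPi-Lp against 974 to 1596 CPM in Sham, 726 to 1195 CPM in 5/6 Nx-HPi-Hp and 643 to 1222 CPM in 5/6 Nx-LPi-Lp.

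The other marker lists were for the endothelium and for tissues near the aorta. The 6 endothelial markers summed to 611 to 813 CPM in Sham and 832 to 1073 CPM in 5/6 Nx-HPi-Lp, with 606 to 984 and 643 to 888 CPM in the other groups. Sympathetic neuron markers (6 genes) summed to 10.6 to 13.4 CPM in Sham, where Chrna3 was at 0, to 39.6 to 1065 CPM in 5/6 Nx-HPi-Lp, to 15.6 to 155 CPM in 5/6 Nx-HPi-Hp and to 8.46 to 108 CPM in 5/6 Nx-LPi-Lp. Schwann cell markers (5 genes) summed to 42.7 to 47.2 CPM in Sham and to 56.6 to 571 CPM in 5/6 Nx-HPi-Lp and 76.3 to 155 CPM in 5/6 Nx-HPi-Hp, with at most 97.5 CPM in 5/6 Nx-LPi-Lp, and all 12 nephrectomy libraries were above Sham. Lymphocyte markers (7 genes) stayed at or below 26.9 CPM in every library, pancreas acinar markers (5 genes) at or below 124 CPM and skeletal muscle markers (5 genes) at or below 395 CPM. Of 5 kidney tubule markers, Umod, Slc34a1 and Kap were at 0 in all 4 groups, and the sum was at most 25.5 CPM. The part of these cells in the members' differences was not tested.

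**Figure D5:**
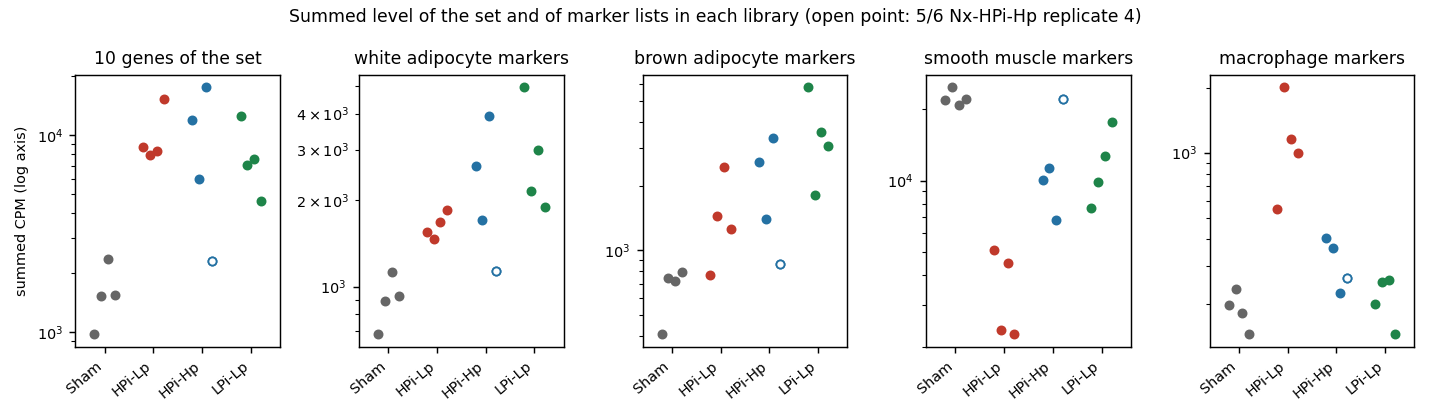
Summed CPM (log axis) of the 10 genes of the set and of 4 marker lists in each library of Sham and of the nephrectomy groups on the HPi-Lp, HPi-Hp and LPi-Lp diets, with an open point for 5/6 Nx-HPi-Hp replicate 4. By group median, the set is lowest and smooth muscle markers are highest in Sham, and smooth muscle markers are lowest in 5/6 Nx-HPi-Lp. Within 5/6 Nx-HPi-Hp, replicate 4 has the highest smooth muscle sum and the lowest sum of the set. Macrophage markers are highest in 5/6 Nx-HPi-Lp (549 to 2016 CPM), and brown adipocyte markers reach 5816 CPM in 5/6 Nx-LPi-Lp.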

How the data were processed

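Whole-aorta RNA of 16 mice (4 groups of 4, grouped by the labels) was analysed from the authors' deposited tables. Per the methods and the submitters' processing notes, the authors aligned reads to mm10, counted them per gene with featureCounts 1.5.0-p3 and deposited these whole-number counts as counted, with no normalization. The authors also deposited FPKM, whose denominator was the DESeq2 size factor times the geometric mean total. Options on strand and multiply mapped reads are not given in the sources used here, so overlapping genes cannot be told apart. Total counts per library ran from 13659525 to 57276915.

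The members and lists were chosen with earlier results of these data known. CPM were computed with TMM factors over the 16 libraries. Genes were tested with edgeR 4.0.16 in R 4.3.3 (filterByExpr, TMM, quasi-likelihood test, Benjamini-Hochberg adjustment over all genes tested, pairwise fits of 8 libraries). Calls required an adjusted p no higher than 0.05 and a change of 1 or more log2 units in size. Ratios used log2(CPM + 0.1) and exact two-sided permutation over libraries in scipy 1.17.1, with Benjamini-Hochberg adjustment over the ratios. Named were all members, from each list the 3 called genes with the largest change between nephrectomy groups and the 2 with the largest change in each direction against Sham, and the 10 genes most like the members by Pearson r, where the mean was 1 CPM or more. The Adipoq to Plin1 ratio and the genes with overlapping loci were chosen after values had been seen. Alternatives used DESeq2 1.42.0, limma 3.58.1 on log2(FPKM + 1) and log2(FPKM + 0.1), RLE scaling, no filter on low counts, no mitochondrially encoded genes, 1 fit of all libraries, a replicate block, another reference for the ratios, and each library left out in turn. The tests were tested on simulated data. Figures were drawn with matplotlib 3.10.9. Replicates are separate animals, and the authors' pathway results were not used here.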

Additional observations from a re-analysis of the deposited data

Results flagged for a closer look

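One library stood far from the others of its group. Lipe in 5/6 Nx-HPi-Lp replicate 4 was at 667 CPM, while the other 3 libraries of the group lay between 452 and 456 CPM, and the gap took up 0.98 of the group's range, above Dixon's 95% critical value for 4 samples. The same library had the highest value of its group for Adipoq, Cfd, Retn, Plin1, Fabp4, Pparg, Lpl and Pnpla2, but not for Lep. Of 40 groups of 4 examined (10 genes in 4 groups), this was the only one past the critical value, and chance alone flags about 1 in 20.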

How the results depend on the processing

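The 0 calls among the members in 5/6 Nx-HPi-Lp against 5/6 Nx-HPi-Hp and in 5/6 Nx-HPi-Hp against 5/6 Nx-LPi-Lp were the same under all alternatives run. In 5/6 Nx-HPi-Lp against 5/6 Nx-LPi-Lp the 2 calls became 1 with the replicate block and 1 with limma on log2(FPKM + 1) without a filter, and ran from 1 to 3 with each library left out. Retn was the lost call (adjusted p = 0.070 with the block and 0.089 with limma). The labels state no pairing of mice by replicate number. The correlation of the deviations of same-numbered libraries ran from -0.234 to 0.017 in 5/6 Nx-HPi-Lp against 5/6 Nx-LPi-Lp, over 9963 genes. In 5/6 Nx-HPi-Hp against 5/6 Nx-LPi-Lp it ran from -0.0855 to 0.666, and 3 of 4 libraries were nearest to their own number. That is a hint of pairing from the data and not the design. The medians against Sham stayed positive throughout and ran, with each library left out, from 1.97 to 2.30 in 5/6 Nx-HPi-Lp, from 2.03 to 2.76 in 5/6 Nx-HPi-Hp and from 1.96 to 2.53 in 5/6 Nx-LPi-Lp, with 2.17, 2.19 and 2.26 under the block. The number of ratios without overlap rose from 1 to 2 in 5/6 Nx-HPi-Hp against 5/6 Nx-LPi-Lp with the white adipocyte markers as reference (an alternative chosen after seeing the data), and with each library left out ran there from 1 to 3, from 0 to 1 in 5/6 Nx-HPi-Lp against 5/6 Nx-HPi-Hp and from 3 to 4 in 5/6 Nx-HPi-Lp against 5/6 Nx-LPi-Lp.

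The log2 fold changes that changed sign were all of genes not called. In 5/6 Nx-HPi-Lp against 5/6 Nx-HPi-Hp, Pparg was at 0.073 with the block, 0.11 with limma on log2(FPKM + 1), filtered or not, and 0.13 on log2(FPKM + 0.1), and Lpl at 0.090, 0.16 and 0.16. In 5/6 Nx-HPi-Lp against 5/6 Nx-LPi-Lp, Fabp4 was at 0.068 with the block, 0.050 with each limma setting and 0.040 without mitochondrially encoded genes. In 5/6 Nx-HPi-Hp against 5/6 Nx-LPi-Lp, Lep was at -0.17 with the block, -0.089 with limma on log2(FPKM + 1) and -0.17 on log2(FPKM + 0.1). With each library left out, the values in 5/6 Nx-HPi-Lp against 5/6 Nx-HPi-Hp ran from -0.26 to 0.44 for Adipoq, -0.13 to 0.98 for Cfd, -0.058 to 0.67 for Fabp4, -0.59 to 0.13 for Lipe, -0.44 to 0.43 for Lpl and -0.52 to 0.23 for Pparg. Against 5/6 Nx-LPi-Lp they ran from -0.17 to 0.35 for Fabp4, -0.51 to 0.12 for Lipe, -0.37 to 0.004 for Lpl and -0.45 to 0.096 for Pparg. In 5/6 Nx-HPi-Hp against 5/6 Nx-LPi-Lp they ran from -0.71 to 0.12 for Fabp4, -0.60 to 0.65 for Lep, -0.48 to 0.42 for Lipe, -0.59 to 0.29 for Lpl, -0.46 to 0.34 for Plin1, -0.44 to 0.19 for Pnpla2 and -0.47 to 0.31 for Pparg. The cause was not tested. Calls over all genes in 5/6 Nx-HPi-Lp against 5/6 Nx-HPi-Hp numbered 1315, with 2098 by DESeq2, 2011 with all libraries in 1 fit, 783 and 468 by limma on log2(FPKM + 1) with and without the filter, and 371 with the block. Against 5/6 Nx-LPi-Lp they numbered 1931, with 1068 and 769 by the same limma fits and 1271 with the block, and against Sham these limma fits gave 2057 and 1886 in place of 3666, 878 and 438 in place of 1932, and 870 and 774 in place of 1748. The 0 calls in 5/6 Nx-HPi-Hp against 5/6 Nx-LPi-Lp became 75 by DESeq2, 12 without the filter and 10 with the block. The effect of depth was not tested, and the lowest count behind a value was 52, for Lep.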
